A study of Mus musculus with 12 samples.

Results

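The genes described here are the enzymes that make arginine and creatine, break down dimethylarginines and store phosphocreatine. Ass1, Asl, Gatm, Gamt, Ddah1, Ddah2 and Ckb are described, 7 of the 23420 genes in the count table, chosen by symbol. RNA was measured in 12 kidneys of male C57BL/6J mice, 4 in each of 3 groups. The control kidneys were removed by nephrectomy, and the other kidneys were taken 24 h after 20 min of ischemia by clamping of the renal pedicle (the labels state the same ischemia for the controls). For the ischemic kidneys, title and group field disagree. Set A is titled anaesthetised and has the group field conscious, and set B is titled conscious and has the group field anaesthetised, so no direction is given to anaesthesia. The labels give no age, and no transgene or drug. By the methods of the study, nephrectomy removed the right kidney and the clamp was on the left one, so that side, surgery, time and ischemia cannot be told apart between ischemic and control kidneys. Whether a control kidney and an ischemic kidney came from the same mouse is not given in the sources used here.

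The kidney makes much of the body's arginine. Citrulline from the gut is taken up in the proximal tubule and turned into argininosuccinate by Ass1 and then into arginine by Asl. Arginine is used for nitric oxide or joined with glycine by Gatm into guanidinoacetate, which Gamt methylates to creatine. Creatine kinases such as Ckb store energy as phosphocreatine. Methylated arginine inhibits nitric oxide synthases. Ddah1 and Ddah2 are named as dimethylarginine dimethylaminohydrolases, enzymes that break down dimethylarginine, and the activity of each was not measured here.

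Between 15367342 and 44793350 counts were assigned to genes per kidney. A level is given in CPM, the count of a gene scaled to the library total, with TMM factors applied. Markers of the proximal tubule were present in all kidneys, with a summed level of 6759 to 7556 CPM for the controls, 710 to 1295 CPM in set A kidneys and 401 to 1374 CPM in those of set B. All 7 of these markers were lower in both sets. All 3 markers of injured tubule were higher in both sets, and the 3 fat markers and 2 of 3 adrenal markers were listed at 0 in every kidney. Of the 3 fibroblast markers, Col1a1 rose from 368 CPM to 1444 CPM in set A kidneys and 1273 CPM in those of set B, Pdgfrb was not called and Dcn was too low to test. The part of these markers in the rise of any member was not tested. Among other nephron markers, Slc12a1 of the thick ascending limb fell by 3.07 and 2.56 on the log2 scale and Slc4a1 of the collecting duct by 2.13 and 2.98, Podxl of the podocyte rose by 0.87 and 0.65, and the other 2, 3 and 2 markers of these cell types were not called. Slc4a1 is also a gene of red blood cells, whose marker Alas2 stood at 2.44 CPM in the controls, 0.218 CPM in set A kidneys and 0 CPM in those of set B and was called lower in set B (adjusted p = 0.0266 in edgeR) but not in set A (adjusted p = 0.311) or between the sets (adjusted p = 0.962). Of the 3 distal convoluted tubule markers only Pvalb was called, at 2.02 CPM in the controls, 0.032 CPM in set A kidneys (adjusted p = 0.111 in edgeR) and 0 CPM in those of set B (adjusted p = 0.0327), with no overlap with the controls in either set and no call between the sets (adjusted p = 1). In whole kidneys, fewer cells of a type and less RNA per cell cannot be told apart.

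All 5 members that could be tested differed from the controls in both sets. Gatm fell most, to 5.35% of the control mean in set A and 9.54% in set B. Asl, Ddah1 and Ckb also fell, and Ddah2 rose. Ass1 and Gamt did not pass the filter on low counts and were not tested. So 5 of 7 members were called in set A against control, 1 higher and 4 lower, and the same 5 in set B against control. Over all 11664 genes tested, 22.3% were called in set A against control (10.5% higher and 11.7% lower) and 22.8% in set B against control (10.9% higher and 11.9% lower). The 2 comparisons share the control kidneys. The groups did not overlap for 3 of the 5 tested members in set A against control and for 4 in set B against control, beside 28.2% and 26.7% of all genes tested. The median log2 fold change of the 5 tested members was -1.33 in set A kidneys and -1.29 in those of set B, beside -0.016 and -0.018 over all genes tested. The tests are edgeR's quasi-likelihood tests with Benjamini-Hochberg adjustment over all genes tested and a threshold of 0.05.

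**Figure D1:**
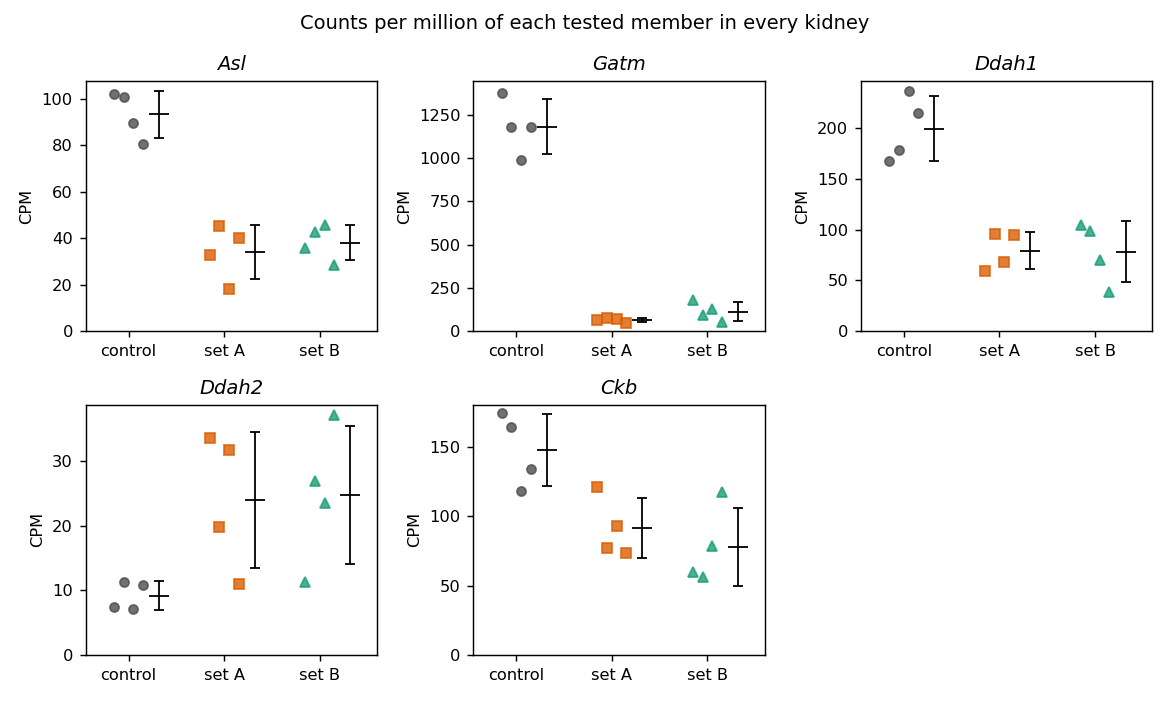
Level (CPM, linear axis) of the 5 tested members in every kidney, with the mean and SD of each group of 4 in black. All 8 ischemic kidneys lie below the controls for Asl, Gatm and Ddah1, while Ddah2 overlaps the controls by 1 kidney in each set and Ckb by 1 kidney of set A.

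**Figure D2:**
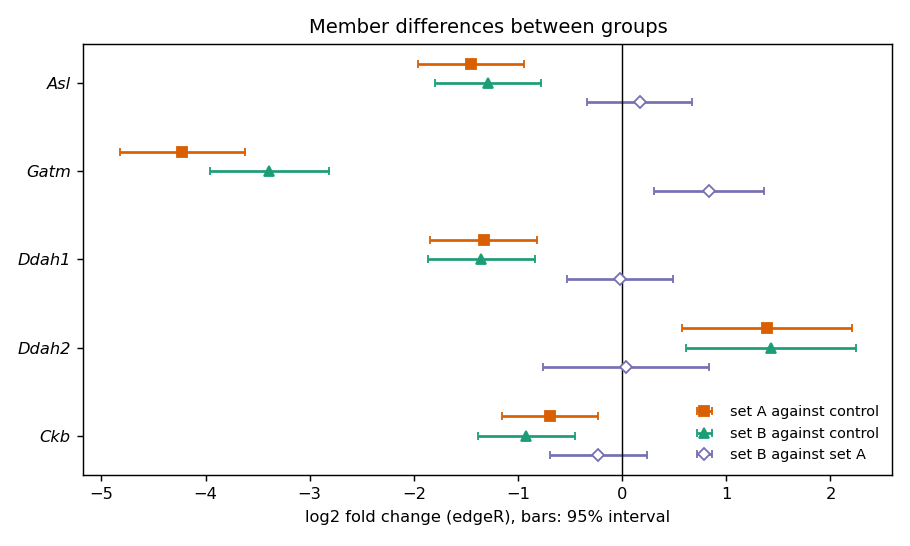
Log2 fold change of each tested member in the 3 comparisons, with 95% intervals from the edgeR fit and filled symbols where the adjusted p is below 0.05. Gatm has the largest fall (-4.22 and -3.39), Ddah2 is the only one to rise (1.39 and 1.43) and has the widest interval, and no symbol of set B against set A is filled.

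Ass1 (argininosuccinate synthetase, chromosome 2, 31470207 to 31520672, plus strand, mm10) joins citrulline with aspartate. Its row held 0 counts in all 12 kidneys, and so did the row of Gm5424, a single-exon copy on chromosome 10 (62071123 to 62072362). Over 1240 aligned bases the copy differs from the Ass1 transcript at 6 bases (99.5% identity). The pair of 60-base stretches shown here lies in exon 8 of Ass1 (chr2:31492314-31492373) and in Gm5424 (chr10:62071618-62071677), and the capital marks the only base that differs between them.
Ass1: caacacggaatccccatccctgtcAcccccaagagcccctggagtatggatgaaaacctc
Gm5424: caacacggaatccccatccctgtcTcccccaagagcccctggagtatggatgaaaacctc
Of the 2309 windows of 100 bases, the read length, in the transcripts of Ass1, 622 (26.9%) also occur in Gm5424, and the rest do not. No other member but Ckb shares such a window with another gene. A listed 0 in this table is no evidence that a gene is silent. B2m, which nearly all cells use and which was chosen after its values were seen, had at most 43 counts in any kidney. No level or fold change is therefore given for Ass1.

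Asl (argininosuccinate lyase, chromosome 5, 130011258 to 130029247, minus strand) releases arginine. In the controls it stood at 102.2, 100.7, 89.8 and 80.6 CPM. In set A it stood at 32.8, 45.3, 18.2 and 39.9 CPM, and in set B at 35.9, 42.5, 45.6 and 28.7 CPM. The highest ischemic kidney was below the lowest control, and the 2 ischemic sets overlapped. The log2 fold change was -1.46 (SE 0.243, adjusted p = 0.000151 in edgeR) for set A and -1.29 (SE 0.242, adjusted p = 0.000491 in edgeR) for set B. This is 36.5% and 40.9% of the control mean.

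Gatm (glycine amidinotransferase, chromosome 2, 122594467 to 122611303, minus strand) makes guanidinoacetate, and it had the highest level of the 5 tested members in the controls. It stood at 1379.5, 1182, 992 and 1179 CPM in the controls. In set A it stood at 62.7, 74.0, 70.8 and 45.6 CPM, and in set B at 178.5, 94.5, 127.7 and 50.5 CPM. All 8 ischemic kidneys lay far below all 4 controls, with replicate 1 of set B the highest and replicate 4 of set A the lowest. The log2 fold change was -4.22 (SE 0.285, adjusted p = 2.06e-09 in edgeR) for set A and -3.39 (SE 0.274, adjusted p = 2.08e-08 in edgeR) for set B. Per kb of exon, Gatm ranked 61 among 11094 genes in the controls, 1719 in set A kidneys and 1030 in those of set B.

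The bases before the start of Gatm and of the genes Ddah1 and Ddah2 are shown because these are the member with the largest fall and the pair of related enzymes that moved in opposite directions. Each run is the 250 bases before the RefSeq start (GRCm38.p6), read along the gene. They lie at chr2:122611278-122611527 (minus strand), chr3:145758442-145758691 (plus strand) and chr17:35058785-35059034 (plus strand). Capitals mark matches on either strand to any of 6 motifs, namely the TATA box TATAAA, the CCAAT box (read as ATTGG on the other strand), the GC box GGGCGG, the E-box CACGTG, the HNF1 motif GTTAAT and the AP-1 site TGANTCA.
Gatm: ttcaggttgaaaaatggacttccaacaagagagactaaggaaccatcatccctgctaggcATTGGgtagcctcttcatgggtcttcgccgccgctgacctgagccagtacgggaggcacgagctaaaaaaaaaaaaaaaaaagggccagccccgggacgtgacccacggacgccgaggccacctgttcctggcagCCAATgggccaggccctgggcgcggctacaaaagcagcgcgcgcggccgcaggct
Ddah1: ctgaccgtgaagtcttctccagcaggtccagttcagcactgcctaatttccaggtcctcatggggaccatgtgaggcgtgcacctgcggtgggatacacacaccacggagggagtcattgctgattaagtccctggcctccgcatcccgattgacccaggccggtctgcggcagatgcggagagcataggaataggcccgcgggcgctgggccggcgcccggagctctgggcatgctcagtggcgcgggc
Ddah2: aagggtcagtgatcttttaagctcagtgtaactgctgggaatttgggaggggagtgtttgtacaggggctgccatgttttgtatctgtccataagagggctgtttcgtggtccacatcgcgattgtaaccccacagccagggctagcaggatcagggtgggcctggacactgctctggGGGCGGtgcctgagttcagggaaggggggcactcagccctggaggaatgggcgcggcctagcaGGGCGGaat
Gatm held CCAAT at 55 bases before the start and, on the other strand, at 190. Ddah2 held GGGCGG at 72 and 9 bases before the start, and Ddah1 held none of the 6 motifs. Among 32851 promoters of the same length, 33.8% held CCAAT and 32.7% held GGGCGG, so both are common. Of the other members in the RefSeq table, Ckb held TATAAA at 28 and CCAAT at 46 and 16 bases before its start, Ass1 held GGGCGG at 63 and CACGTG at 36, and Gamt held GGGCGG on the other strand at 86, 67 and 22. The table held 6 of the 7 members. TATAAA occurred in 12.4% of all promoters, CACGTG in 6.02%, GTTAAT in 6.43% and TGANTCA in 6.75%. A match to these letters is a description of the sequence only.

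Gamt (guanidinoacetate N-methyltransferase, chromosome 10, 80258151 to 80261012, minus strand) completes creatine. It had 83 counts in control replicate 1, 18 counts in set B replicate 1 and 0 counts in the other 10 kidneys. At the level of control replicate 1, the other 11 kidneys would have held between 62.6 and 182.6 counts. The 4 controls therefore differed among themselves by far more than counting error. This was not rare in the table: of the genes with at least 83 counts in a control kidney, 7.06% had 0 counts in another control kidney, with 9.04% for set A and 8.61% for set B. No comparison of Gamt between groups is given.

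Ckb (creatine kinase, brain type, chromosome 12, 111669361 to 111672338, minus strand) makes phosphocreatine in the cytosol. It stood at 174.1, 164.3, 118.2 and 133.8 CPM in the controls, at 120.9, 77.0, 93.2 and 73.6 CPM in set A kidneys and at 59.9, 56.2, 78.3 and 117.2 CPM in those of set B. Set A overlapped the controls by 1 kidney, and the highest kidney of set B lay just below the lowest control. This was the smallest change among the tested members. The log2 fold change was -0.69 (SE 0.222, adjusted p = 0.0287 in edgeR) for set A and -0.92 (SE 0.223, adjusted p = 0.00435 in edgeR) for set B. In set A the call was lost without control replicate 1 or 2 or set A replicate 2, 3 or 4 (adjusted p up to 0.0971 in edgeR). Of the 3329 windows of 100 bases in Ckb transcripts, 151 (4.54%) also occur in Gm12892. The mitochondrial creatine kinase Ckmt1 moved the other way, from 2439 ± 181 CPM (SD over 4 kidneys) in controls to 4318 ± 933 CPM in set A kidneys and 4731 ± 1833 CPM in those of set B. Its log2 fold change was 0.82 (SE 0.192, adjusted p = 0.00325 in edgeR) for set A and 0.96 (SE 0.192, adjusted p = 0.000932 in edgeR) for set B. The muscle kinase Ckm was listed at 0 in every kidney, and Ckmt2 had 2 counts in 1 kidney.

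Within a kidney, the ratio of Ckb to Ckmt1 counts does not depend on library scaling. On the log2 scale, with 0.5 added to each count, it fell by 1.51 in set A kidneys and by 1.86 in set B, and neither set overlapped the controls (two-sided exact permutation test, p = 0.0286 each, the smallest that 4 against 4 allows, and adjusted p = 0.0429 over 3 tests). This ratio was added after the data were seen, and its 3 tests were adjusted apart from those of the planned ratios. It restates the fall of Ckb and the rise of Ckmt1 and is no further evidence of them. The ratio of Ckb to Gatm was 0.114 to 0.139 in the controls, 1.04 to 1.93 in set A kidneys and 0.336 to 2.32 in those of set B. Its log2 value rose by 3.53 in set A kidneys and by 2.56 in set B (exact permutation p = 0.0286 each, adjusted p = 0.0429 over 6 tests). For Ckb to Gatm, the difference of set B from set A was -0.98 on the log2 scale (exact permutation p = 0.2).

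Ddah1 (chromosome 3, 145758675 to 145894277, plus strand) and Ddah2 (chromosome 17, 35059035 to 35062095, plus strand) share the name dimethylarginine dimethylaminohydrolase. Whether both act on dimethylarginine was not tested. Ddah1 stood at 167.1, 178.5, 236.4 and 215.2 CPM in the controls. It stood at 59.4, 95.7, 67.7 and 94.6 CPM in set A kidneys and at 104.5, 98.4, 70.2 and 39.0 CPM in those of set B. All 8 ischemic kidneys were below the controls. The locus holds the pseudogene Rpl36a-ps2. The log2 fold change of Ddah1 was -1.33 (SE 0.245, adjusted p = 0.000402 in edgeR) for set A and -1.35 (SE 0.245, adjusted p = 0.000355 in edgeR) for set B.

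Ddah2 went up. It stood at 7.38, 11.3, 7.14 and 10.9 CPM in the controls, at 33.5, 19.8, 31.6 and 11.02 CPM in set A kidneys and at 11.2, 26.9, 23.4 and 37.2 CPM in those of set B. The lowest kidney of each set overlapped the controls and the other 3 of each set were above them. The log2 fold change of Ddah2 was 1.39 (SE 0.388, adjusted p = 0.0127 in edgeR) for set A and 1.43 (SE 0.389, adjusted p = 0.0107 in edgeR) for set B.

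The ratio of Ddah1 to Ddah2 counts was 15.8 to 33.0 in the controls, 1.77 to 8.57 in set A kidneys and 1.05 to 9.28 in those of set B. No ischemic kidney reached the controls. The log2 ratio fell by 2.64 in set A kidneys and by 2.78 in set B (exact permutation p = 0.0286 each, adjusted p = 0.0429 over 6 tests). The 2 ischemic sets differed by -0.14 (exact permutation p = 0.914), with SDs of 1.06 and 1.29 on the log2 scale.

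Genes can be compared with each other per length of exon. In the controls the order was Gatm at 394 CPM per kb, Ckb at 51.0, Ddah1 at 50.03, Asl at 19.3 and Ddah2 at 5.75, and only Ckb and Ddah1 overlapped as neighbours. Ckmt1 was above them all, at 977 CPM per kb. In set A the members lay closer together, from Ckb at 31.5 CPM per kb through Gatm at 21.1, Ddah1 at 19.9, and Ddah2 at 15.1 to Asl at 7.05, and all neighbours from Gatm down overlapped. In set B the order was Gatm at 37.6 CPM per kb, Ckb at 26.9, Ddah1 at 19.6, Ddah2 at 15.5 and Asl at 7.90, and every pair of neighbours overlapped. Ckmt1 stood at 1730 CPM per kb in set A kidneys and 1895 in those of set B.

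**Figure D3:**
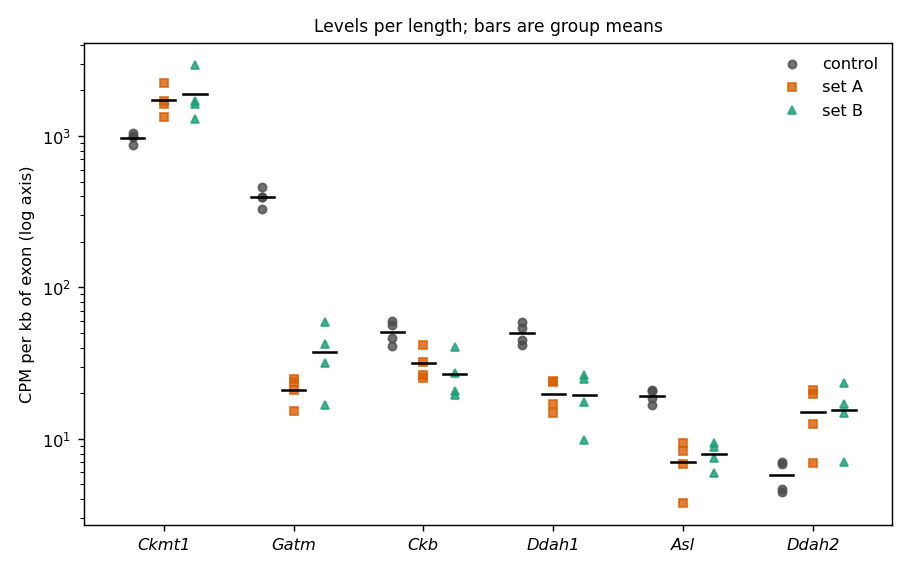
Level per kb of exon (log axis) of the 5 tested members and Ckmt1, each point a kidney and each bar a group mean. The controls spread from 5.75 (Ddah2) to 394 CPM per kb (Gatm), whereas the means of the 5 members run from 7.05 to 31.5 for set A and from 7.90 to 37.6 for set B.

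The 2 ischemic sets were compared to ask whether the members differed with the state of the mouse during ischemia. No member of the 5 tested passed the threshold in set B against set A in edgeR, nor under DESeq2 or limma-trend, and 1 of all 11664 genes did in edgeR (0.00857%). That gene, named after its values were seen, was Slc5a12, a sodium-coupled monocarboxylate transporter of the proximal tubule, which was higher in set B by 1.85 on the log2 scale (adjusted p = 0.0328 in edgeR). Its call was lost in several settings. No gene was called in limma-trend, with only the 2 ischemic sets fitted, or without any 1 kidney other than set B replicate 2 or 4. At an unadjusted p below 0.05 the count was 1 of 5 members, beside 5.03% of all genes. The member was Gatm, with a log2 difference of 0.83 for set B over set A (95% interval 0.30 to 1.36, unadjusted p = 0.0038, adjusted p = 0.93 in edgeR). Set B replicate 4 was the lowest of its set. Without it the difference was 1.08 (adjusted p = 0.0194 in edgeR). For the other members the 95% intervals of the log2 difference ran from -0.33 to 0.67 for Asl, -0.53 to 0.48 for Ddah1, -0.69 to 0.23 for Ckb and -0.76 to 0.84 for Ddah2. These intervals bound the difference and do not show that the sets were alike. None of the 5 members separated the sets without overlap, beside 2.61% of all genes.

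Over the 8 ischemic kidneys of both sets, the highest level was 3.91 times the lowest for Gatm, 2.51 times for Asl, 2.68 for Ddah1, 3.38 for Ddah2 and 2.15 for Ckb. Over the 4 controls the same ratio ran from 1.27 for Asl to 1.58 for Ddah2, and since it grows with the number of kidneys no comparison is drawn. Set B replicate 4 had the lowest Ddah1 and the highest Ddah2 of the 8, and set A replicate 4 had the lowest Gatm and Ddah2.

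Since markers of the proximal tubule were lower after ischemia, each member was also set against them within each kidney. The mean log2 CPM of the 7 markers (Lrp2, Cubn, Slc34a1, Slc5a2, Slc22a6, Slc27a2 and Slc7a13) was subtracted from the log2 CPM of the member. Relative to the markers, Asl was higher by 1.46 in set A kidneys and 2.06 in those of set B, Ddah1 by 1.64 and 1.93, and Ckb by 2.28 and 2.40. Ddah2 was higher by 4.27 and 4.70. Without Slc7a13 these differences were 1.12 and 1.47 for Asl, 1.30 and 1.34 for Ddah1, 1.94 and 1.81 for Ckb and 3.93 and 4.11 for Ddah2. With all 7 markers, no ischemic kidney of either set overlapped the controls for these 4 members (two-sided exact permutation test, p = 0.0286 each, adjusted p = 0.0429 over 15 tests).

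Relative to the markers, Gatm stood at 1.91 to 2.23 in the controls, 0.155 to 1.57 in set A kidneys and 1.70 to 2.29 in those of set B. Set A was lower than control by 1.25 (exact permutation p = 0.0286, adjusted p = 0.0429 over 15 tests). Set B differed from control by -0.15 (exact permutation p = 0.314). Set B was higher than set A by 1.10, with no overlap (exact permutation p = 0.0286, adjusted p = 0.0429 over 15 tests). The values for set B depended on Slc7a13, which had at most 1 count in every kidney of set B. Without that marker set B was lower than control by 0.75 and set A by 1.59, and set B stayed higher than set A by 0.85 (exact permutation p = 0.0286 each). These comparisons and the marker left out were chosen after the data were seen. The part of a loss of proximal tubule RNA in the fall of each member was not tested.

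**Figure D4:**
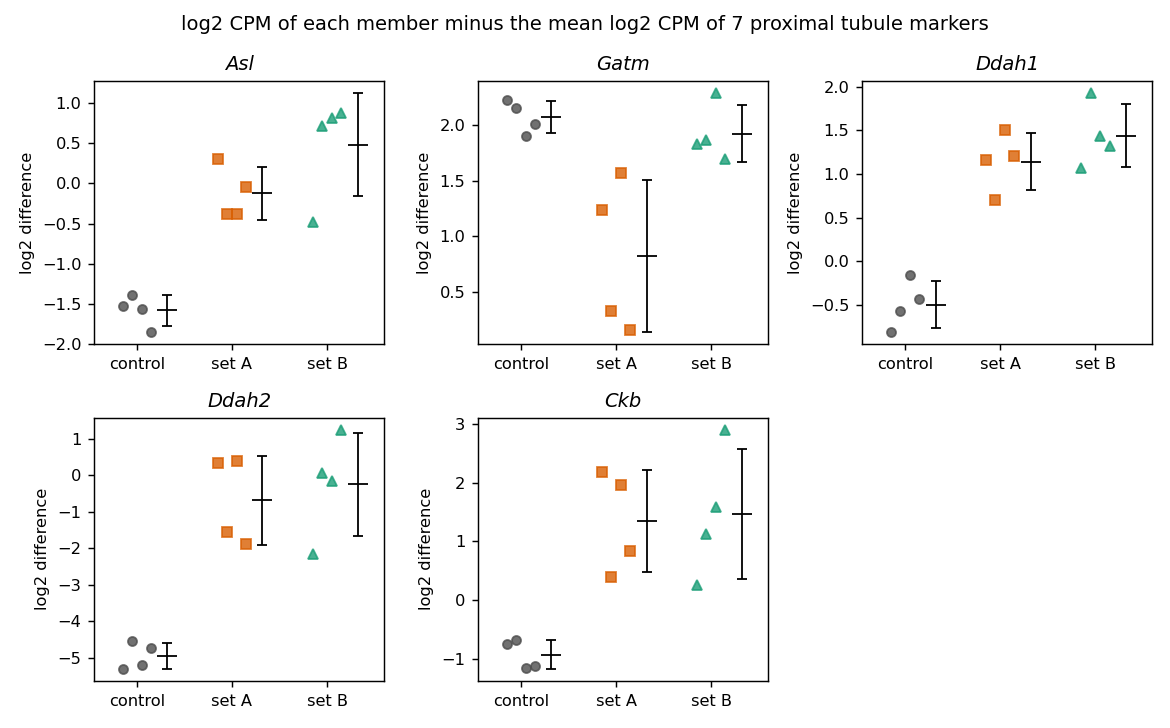
Log2 CPM of each tested member minus the mean log2 CPM of 7 proximal tubule markers in every kidney, with the mean and SD of each group of 4 in black. In 4 of the 5 panels all ischemic kidneys lie above the controls, and in the Gatm panel set A lies below the controls while set B overlaps them. All 7 markers were lower in both sets, so a gene that fell less than they did lies higher here.

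Of 44 further genes of arginine, ornithine, dimethylarginine, nitric oxide and creatine metabolism, 35 could be tested. In set A against control 17 were called, 7 higher and 10 lower, and in set B against control 19 were called, 8 higher and 11 lower, beside 22.3% and 22.8% of all genes tested. The median log2 fold change of the 35 was -0.24 in set A kidneys and -0.11 in those of set B, beside -0.016 and -0.018 over all genes tested. In set B against set A none was called in edgeR or in any of the 19 other settings, and 4 had an unadjusted p below 0.05, beside 5.03% of all genes. Otc, Mat1a and Ckm were listed at 0 in all 12 kidneys.

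Of the 3 mitochondrial carriers of ornithine or of aspartate and glutamate that were tested, 2 fell in both sets and Slc25a12 was not called. Slc25a15, the ornithine carrier, fell from 77.6 ± 14.0 CPM (SD over 4 kidneys) in controls to 28.2 ± 7.02 CPM in set A kidneys and 33.3 ± 12.5 CPM in those of set B. Slc25a13, the aspartate and glutamate carrier citrin, fell by 1.01 and 0.97 on the log2 scale (adjusted p = 8.76e-05 and 0.000133 in edgeR). The other 4 genes described for this role could not be tested. Between ornithine and proline, Prodh and Aldh4a1, which break proline down, fell in both sets. The log2 fold change of Aldh4a1 was -2.62 in set A kidneys and -2.15 in those of set B (adjusted p = 0.000117 and 0.000707 in edgeR), and that of Prodh was -2.16 and -1.40 (adjusted p = 2.16e-05 and 0.00146 in edgeR). Aldh18a1, which makes proline and ornithine precursors from glutamate, rose from 1.01 CPM to 9.04 CPM in set A kidneys and 8.99 CPM in those of set B. In 2 of the 4 controls Aldh18a1 had 3 counts or fewer, so the size of its rise is uncertain. Its adjusted p was 0.0367 and 0.037 in edgeR, and the call was lost in 8 and 10 of 19 other settings.

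Among the protein arginine methyltransferases, Prmt1, Carm1 and Prmt7 rose in both sets and the other 5 were not called. Prmt1 rose from 127 ± 27.2 CPM (SD over 4 kidneys) in controls to 291 ± 41.1 CPM in set A kidneys and 308 ± 21.4 CPM in those of set B, a log2 fold change of 1.20 and 1.28 (adjusted p = 9.84e-06 and 4.56e-06 in edgeR). Carm1 had a log2 fold change of 0.78 and 0.77 (adjusted p = 0.0126 and 0.0129 in edgeR). Prmt7 had one of 1.78 and 1.63 (adjusted p = 0.0134 and 0.0223 in edgeR), set A overlapped the controls, and the call was lost in 1 and 4 of 19 other settings. Agxt2, a mitochondrial enzyme that removes dimethylarginine by another route, stood at 17.3 ± 4.29 CPM in the controls, 3.34 ± 2.05 CPM in set A kidneys and 4.18 ± 3.49 CPM in those of set B, and was not called (adjusted p = 0.0561 and 0.0975 in edgeR).

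Nos3, the endothelial nitric oxide synthase, rose from 9.61 ± 1.70 CPM (SD, n = 4) to 24.3 ± 5.98 CPM in set A kidneys and 23.8 ± 3.92 CPM in those of set B (log2 fold change 1.34 and 1.31, adjusted p = 0.00156 and 0.00197 in edgeR). Of the 3 endothelial markers, Kdr stood at 40.9 CPM in the controls, 27.4 CPM in set A kidneys and 29.7 CPM in those of set B and was not called (adjusted p = 0.0726 and 0.162 in edgeR). Pecam1 and Emcn were below 1 CPM on average in each group. The part of these markers in the rise of Nos3 was not tested. Nos1, the neuronal form, rose in set B (log2 fold change 2.63, adjusted p = 0.0144 in edgeR), and without set B replicate 4 the log2 fold change was 1.74 and the call was lost (adjusted p = 0.145 in edgeR). In set A it was not called (log2 fold change 1.84, adjusted p = 0.0825 in edgeR). The difference of Nos1 between the sets was not called either (adjusted p = 1 in edgeR). The inducible form Nos2 had 48 counts in 1 kidney of set A and 0 in the other 11.

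Of 4 tested genes that supply and recover the methyl donor of Gamt, Mat2a and Ahcy fell in both sets and Mat2b was not called. Gnmt fell in set B (adjusted p = 0.00941 in edgeR) and was not called in set A (adjusted p = 0.258) or between the sets (adjusted p = 0.96). Mat2a, which makes S-adenosylmethionine, fell from 325 ± 15.8 CPM (SD, n = 4) to 129 ± 29.6 CPM in set A kidneys and 135 ± 12.02 CPM in those of set B. Ahcy, which removes S-adenosylhomocysteine, fell from 194 ± 25.8 CPM to 52.1 ± 16.1 CPM and 48.3 ± 18.5 CPM. The adjusted p of Ahcy was 2.51e-05 (set A) and 1.44e-05 (set B) by edgeR. Of the transporters, Slc7a7 and Slc3a1, subunits of basic amino acid carriers, fell in both sets, with log2 fold changes of -2.69 and -2.34 for Slc7a7 and -3.39 and -2.38 for Slc3a1. Slc7a1, a cationic amino acid carrier, rose by 1.92 and 1.99 on the log2 scale (adjusted p = 0.0242 and 0.0199 in edgeR), and its call was lost in 4 and 3 of 19 other settings. The creatine transporter Slc6a8 stood at 1149 ± 102 CPM in the controls, 1078 ± 19.2 CPM in set A kidneys and 1274 ± 198 CPM in those of set B. It was not called in either set (adjusted p = 0.686 and 0.429 in edgeR), with 95% intervals of the log2 fold change from -0.33 to 0.14 (set A) and from -0.09 to 0.39 (set B).

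**Figure D5:**
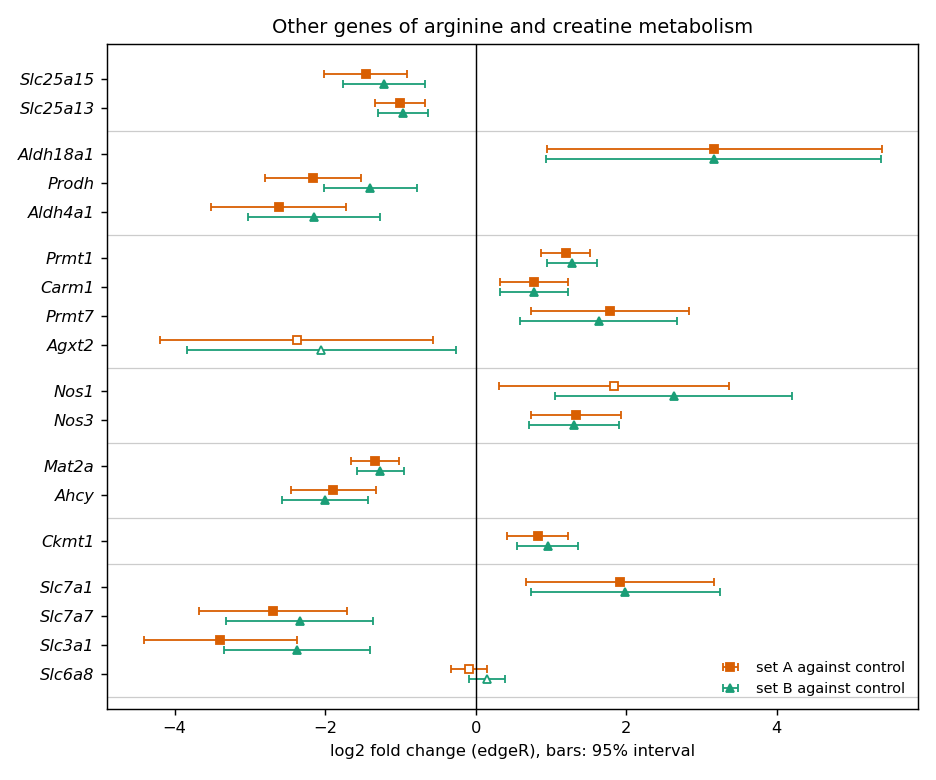
Log2 fold change with 95% interval of the named genes around the members, grouped by role from the mitochondrial carriers at the top to the transporters at the bottom, with filled symbols where the adjusted p is below 0.05. Slc3a1 has the lowest value in each set (-3.39 and -2.38), Aldh18a1 the highest (3.17 and 3.16), and Slc6a8 lies near 0. For Aldh18a1, 2 of the 4 controls had 3 counts or fewer.

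Among all tested genes other than the members, the one whose centred log2 CPM over the 12 kidneys was closest to each member was sought. It was Adk for Asl, Slc34a1 for Gatm, Man1a for Ddah1, Ehd4 for Ddah2 and Camk2n1 for Ckb. Slc34a1 is the sodium-phosphate cotransporter of the proximal tubule and one of its 7 markers. The root mean square difference was 0.392 for Gatm and Slc34a1, beside 2.05 as the median over all genes tested. It was 0.167 for Ckb, 0.171 for Ddah1, 0.251 for Asl and 0.338 for Ddah2, beside medians of 0.897, 1.08, 1.08 and 1.16. The root mean square of each member about its own mean was 0.518 for Ckb, 0.762 for Ddah1, 0.752 for Asl, 0.825 for Ddah2 and 1.90 for Gatm. All values rest on the same 12 libraries.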

How the data were processed

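Stranded mRNA libraries of 12 mouse kidneys were sequenced as single reads of 100 bases. The authors aligned the reads to mm10 with STAR and deposited raw counts per gene from HTSeq, without normalization. Versions, annotation release and strand setting are not given in the sources used here. The submitters' processing notes also name FastQC and edgeR. Totals were 15367342 to 44793350 counts per kidney, and 3 counts (0.067 to 0.195 CPM) were taken as the floor, for counting error only.

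The counts were analysed in edgeR 4.0.16 (R 4.3.3). The default filter (minimum count 10, minimum total 15) kept 11664 of 23420 genes, TMM factors lay between 0.968 and 1.03, and all 12 kidneys entered 1 fit with a coefficient per group, whose common biological coefficient of variation was 0.762. Contrasts were tested by two-sided quasi-likelihood F-tests with Benjamini-Hochberg adjustment. Within-kidney ratios and CPM were compared by exact permutation tests, 4 kidneys against 4, for which p cannot go below 0.0286. By the methods of the study a mouse could give at most 1 kidney to a group, so the kidneys of a group were taken as separate mice, which the labels do not state. Of 5 ratios planned, those with Ass1 or Gamt were not computed, and Ckb to Ckmt1 was added after the data were seen.

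All members were named, except that 1 member and 1 further gene are not reported here and were left out of the counts. Of the 44 further genes, those called in both sets, at most 3 per role by mean log2 fold change, were named, with every nitric oxide synthase, Slc6a8, Prmt1, Agxt2 and the other creatine kinases. Azin2, Prmt9 and Adgre1 were read under their older symbols. The members and lists were chosen with earlier results of these data known. Gene positions and exon lengths came from GENCODE M21 (mm10), and promoter sequences from RefSeq (GRCm38.p6). The procedure was tested on simulated data. Alternatives were DESeq2 1.42.0, RLE factors, no filter, a minimum of 1 CPM exceeded by 4 kidneys or more, a fit of the compared groups alone, a block for the replicate number, limma 3.58.1 with a trend and leaving out each kidney. Ratios and levels were computed in Python 3.11.15 with pandas 2.3.3, and figures were drawn with matplotlib 3.10.9.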

Additional observations from a re-analysis of the deposited data

Results flagged for a closer look

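In 3 of the 41 groups of 4 values that differed and were examined (members, ratios and members against the proximal tubule markers), 1 kidney stood far from the other 3, its gap divided by the range being above Dixon's critical value. Chance gives about 1 group in 20, a rate that does not apply to the 2 groups of Gamt, where 3 of the 4 values are 0. Gamt stood at 3.98 CPM in control replicate 1 and at 0.606 CPM in set B replicate 1, with 0 in the other 3 kidneys of each group. In set B replicate 1, Asl against the proximal tubule markers was -0.48, beside 0.72 to 0.88 in the other 3.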

How the results depend on the processing

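The 5 tested members stayed called against control under all 7 other analyses (DESeq2, limma-trend, RLE factors, both filters, only the groups compared and the replicate block) in both sets, with no change of direction. On leaving out each kidney in turn, 4 to 5 members were called in set A against control, the exception being Ckb, and 5 in set B against control. In set B against set A, 0 to 1 members were called, the 1 being Gatm without set B replicate 4. Uncalled differences of set B from set A changed direction: without a kidney they ran from -0.057 to 0.34 for Asl, -0.19 to 0.20 for Ddah1 and -0.23 to 0.28 for Ddah2. The replicate numbers did not pair the kidneys, since same-numbered kidneys had deviations correlated at -0.055 to 0.045, and 0, 0 and 2 of 8 kidneys in the 3 comparisons correlated best with their own number. With the replicate block the difference of set B from set A was -0.031 for Ddah2, the calls of Aldh18a1 in both sets (adjusted p = 0.0616 and 0.0587 in edgeR) and of Prmt7 in set B (0.055) were lost, and no other call of a named gene changed. The paired permutation of ratios gave the same differences and cannot go below p = 0.125. Relative to the proximal tubule markers without Slc7a13, Gatm in set B against control moved to -0.75 and passed the unadjusted threshold, and Ckb in set B against set A moved from 0.12 to -0.13. With RLE-scaled CPM the groups of Ddah2 no longer overlapped the controls (differences of 14.99 CPM for set A and 15.98 CPM for set B, exact permutation p = 0.0286 each), and Ckb in set B did (-67.0 CPM, p = 0.0571). Named genes near the threshold, in 19 other settings, were Agxt2, called in 4 for set A and 1 for set B, Nos1, called in set A in 1, Carm1, lost in 1 in each set, and Prmt7, lost in 1 for set A and 4 for set B (adjusted p up to 0.103 in edgeR). Over all genes, set B against set A gave 1 call in edgeR, 27 in DESeq2, 6 without a filter, 0 in limma-trend or with only these groups fitted, and 0 to 7 without a kidney. The causes were not tested. At these depths a gene with 3 counts or fewer could not be compared, which holds for Ass1 and for Gamt in most kidneys.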
